A study of Mus musculus with 12 samples.

Results

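The solute carriers that move inorganic ions were followed in the brains of newborn mice without the protein kinase KIS. The members are the genes whose symbol in the deposited array table begins with Slc4a, Slc8a, Slc9a, Slc20a, Slc24a, Slc30a, Slc39a or Slc41a, without any gene on chromosome 1 between 152.1 and 192.1 Mb, a stretch that holds the targeted gene. The rule found 51 of the 17550 symbols of the table, with 858 probesets, and the window on chromosome 1 removed 0 of them. By family they were 8 Slc4, 3 Slc8, 9 Slc9, 2 Slc20, 6 Slc24, 8 Slc30, 12 Slc39 and 3 Slc41 symbols. The prefix also takes in 3 genes that are not carriers: Slc9a3r1 and Slc9a3r2, scaffold proteins that bind a sodium/proton exchanger, and Slc4a1ap, an adaptor protein. A further symbol, Slc39a1, is listed with 4 probesets on chromosome 2, where the RefSeq list of assembly GRCm38.p6 has a pseudogene of Slc39a1 and not the gene, which that list has on chromosome 3.

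Carriers of these families set the ion gradients against which neurons and glia work. The Slc4 proteins move bicarbonate and the Slc9 proteins exchange sodium for protons, and both set the pH of the cytosol, of endosomes and of the cerebrospinal fluid. The Slc8 and most Slc24 exchangers drive calcium out of the cell after activity, and the Slc20 carriers take up phosphate. Slc30 proteins move zinc out of the cytosol into vesicles or out of the cell, Slc39 proteins bring it back, and Slc41 proteins carry magnesium.

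Total RNA of the whole brain was hybridized to 12 exon arrays for the mouse (Affymetrix Exon 1.0 ST), 1 for each of 6 wildtype (KIS +/+) and 6 KIS-ko (KIS -/-) newborn females. The animals were untreated and formed 6 pairs of littermates, 1 pair for each litter, so that replicates were separate animals, and the line had been backcrossed to C57BL6/N. On these arrays a probeset reads 1 exon or a part of it, and the deposited value is a linear signal. Here a gene value averages log2(signal + 16) over the gene's probesets, and differences are KIS-ko minus wildtype on this scale, which understates the change of dim genes. In whole tissue, fewer cells of a type and less RNA per cell cannot be told apart. Gene positions are those of the table, whose genome build is not given in the sources used here. Promoter positions are on GRCm38.p6.

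The targeted gene Uhmk1, which encodes KIS, was low on every array labelled KIS-ko. Its gene value lay between 10.89 and 11.07 in wildtype and between 8.62 and 8.98 in KIS-ko brains, a difference of -2.11 (limma, adjusted p = 2.91e-07). All 8 neuron markers measured were detected above the intron controls. The array medians ranged from 473 to 526 in wildtype and from 460 to 517 in KIS-ko brains, and in every litter but litter 4 the wildtype littermate had the higher array median. Centring each array on its median added 0.056 to every difference over the 6 litters. Within single litters it added from 0.02 to 0.17, except in litter 4, where it took away 0.10 (a shift of -0.10). Differences are as deposited unless a scaling is named.

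Which carriers could be read in the newborn brain was decided against the intron controls, probesets placed in introns that show the signal without mature transcript. Their 95th percentile was 713 over 5222 controls and their median 114. A carrier was called detected when at least 50% of its kept probesets had a mean signal above 713. By this measure 27 of the 51 were detected, 52.9%, against a background of 38.1% of all genes. With the median control as the limit the count was 47 of 51, for which no share of all genes was taken.

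All 3 Slc8 sodium/calcium exchangers were detected, and both Slc20 phosphate carriers. Of the Slc24 exchangers, most of which also carry potassium, only Slc24a3 passed, with 20 of its 20 probesets above the limit. Slc24a1, known from rod photoreceptors, and Slc24a5, known from pigment cells, had no probeset above it. Among bicarbonate carriers 4 of 8 symbols were detected. They were Slc4a3, an anion exchanger of excitable cells, Slc4a4, the electrogenic sodium bicarbonate cotransporter, and Slc4a8 and Slc4a10, sodium-driven bicarbonate carriers of neurons. The band 3 anion exchanger of red cells, Slc4a1, had 0 of 21 probesets above the limit.

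Among proton exchangers 6 of 9 symbols were detected. Among them were Slc9a7 and Slc9a8 of the Golgi and the scaffolds Slc9a3r1 and Slc9a3r2. Slc9a9, an endosomal exchanger, had 6 of 19 probesets above the limit. The stomach exchanger Slc9a4 and the sperm exchanger Slc9a10 (Slc9c1 in the RefSeq list) had 0 of 13 and 0 of 15.

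Zinc carriers were divided in the same way. Of the exporters, Slc30a1 of the plasma membrane, Slc30a4, Slc30a5 and Slc30a9 were detected, while Slc30a3, the carrier that fills synaptic vesicles with zinc, had 2 of 9 probesets above the limit and Slc30a8, the carrier of insulin granules, 0 of 10. Of the importers 5 of 12 were detected, namely Slc39a3, Slc39a6, Slc39a7, Slc39a10 and Slc39a13. Slc39a12 had 0 of 13. Magnesium carriers were detected in 2 of 3 cases, Slc41a1 and Slc41a2, and Slc41a3 had 6 of 14 probesets above the limit.

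**Figure D1:**
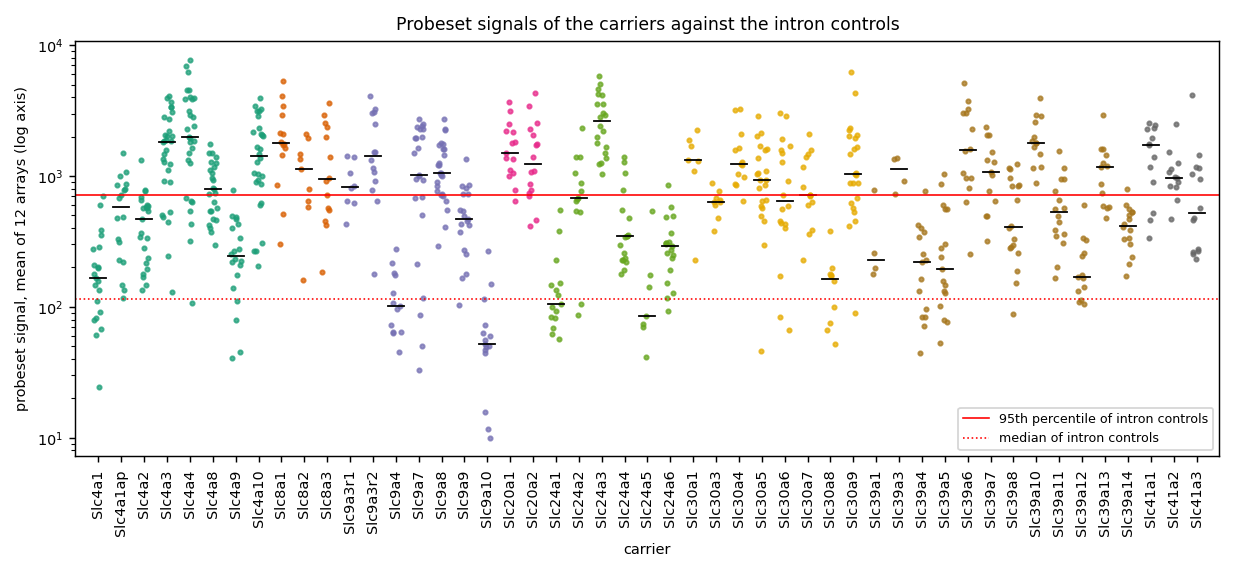
Mean signal of every kept probeset over the 12 arrays, on a log axis, for 49 of the 51 symbols in the order of their families (colours), with the median of each symbol as a bar and the intron controls as red lines. All probesets of Slc24a3 and Slc39a10 lie above the upper line at 713, and those of Slc4a1, Slc9a4 and Slc9a10 lie under it.

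Whether loss of KIS changed the level of any carrier was tested in the fit over all genes, with the litter as a block. Of the 51 carriers, 0 passed the adjusted threshold of 0.05 in limma, against a background of 0.00579%, which is Uhmk1 alone among 17279 genes. The lowest adjusted p of a carrier was 0.685. At an unadjusted p under 0.05, 2 carriers were lower in KIS-ko, Slc20a2 and Slc39a7, against a background of 4.34% of all genes (3.92% of the carriers), and 0 were higher, against 1.82% (6.16% in either direction). With centred arrays 0 were lower, against 1.71%, and without the litter block 4, against 4.31%. Differences ran from -0.15 to 0.10, and their 95% intervals lay within -0.32 and 0.24. For the 27 detected carriers the intervals lay within -0.28 and 0.13.

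**Figure D2:**
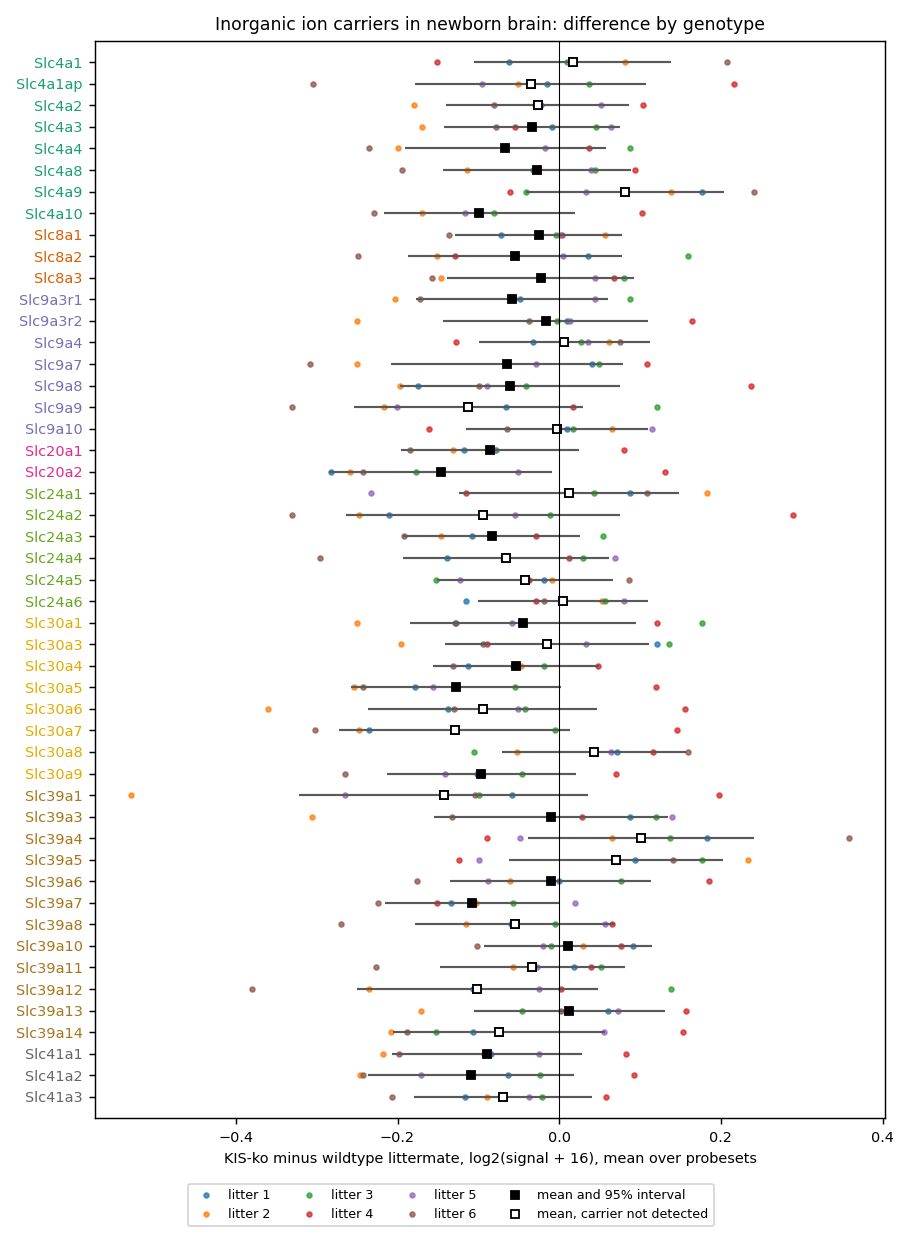
Difference between KIS-ko and wildtype littermate on the log2(signal + 16) scale for 49 of the 51 symbols (label colours mark families), with the 6 litters as small points, the mean as a square (open where the carrier was not detected) and its 95% interval as a line. Most means lie a little to the left of 0, between -0.15 and 0.10, and the points of litter 4 often lie on the right.

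Slc20a2, a sodium-coupled phosphate carrier of the plasma membrane, had the largest negative difference. The gene is listed on chromosome 8 from 23587279 to 23680020 and was read by 16 probesets, 13 of them above the intron limit. Its value was 10.30, 10.43 and 10.49 (lowest, median and highest of 6) in wildtype and 10.19, 10.23 and 10.43 in KIS-ko brains. The groups overlapped: the KIS-ko brain of litter 4 lay above its own littermate and above 2 further wildtype brains, and that of litter 5 above the wildtype brain of litter 4. The difference was -0.15 (standard error 0.06, 95% interval -0.28 to -0.01), lower in 5 of 6 litters, with an adjusted p of 0.685 in limma. In litters 1, 2 and 6 it was -0.28, -0.26 and -0.24, in litter 4 it was 0.13. Of its probesets 15 of 16 had a negative difference, from -0.38 to 0.06, where 66.2% of all probesets were negative. Of the 16, 0 passed the adjusted threshold in limma and 1 was under 0.05 unadjusted. With centred arrays the difference was -0.09 and with a second quantile normalization -0.11. The other phosphate carrier, Slc20a1, gave -0.09 (interval -0.20 to 0.02), with a negative value at 15 of 15 probesets, but -0.03 with centred arrays and 0.02 with the median over probesets. It too was lower in every litter but litter 4, where it was higher by 0.08.

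Slc39a7, which lets zinc out of the endoplasmic reticulum and Golgi into the cytosol, is listed on chromosome 17 from 34165452 to 34168422. Its value was 9.96, 10.05 and 10.13 (lowest, median and highest of 6) in wildtype and 9.85, 9.95 and 9.98 in KIS-ko brains. The groups overlapped by the lowest wildtype brain, that of litter 5, the litter in which KIS-ko was higher by 0.02. The difference was -0.11 (standard error 0.05), lower in 5 of 6 litters, with an adjusted p of 0.685 in limma, and its 95% interval, from -0.22, ended just under 0. By exon it was uneven. The 3 probesets with an unadjusted p under 0.05 in limma, at -0.33, -0.28 and -0.28, all had a signal under the intron limit, and without the dim probesets the gene's difference was -0.05. The median over probesets in place of the mean gave -0.01, centred arrays gave -0.05 and a second quantile normalization -0.06.

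**Figure D3:**
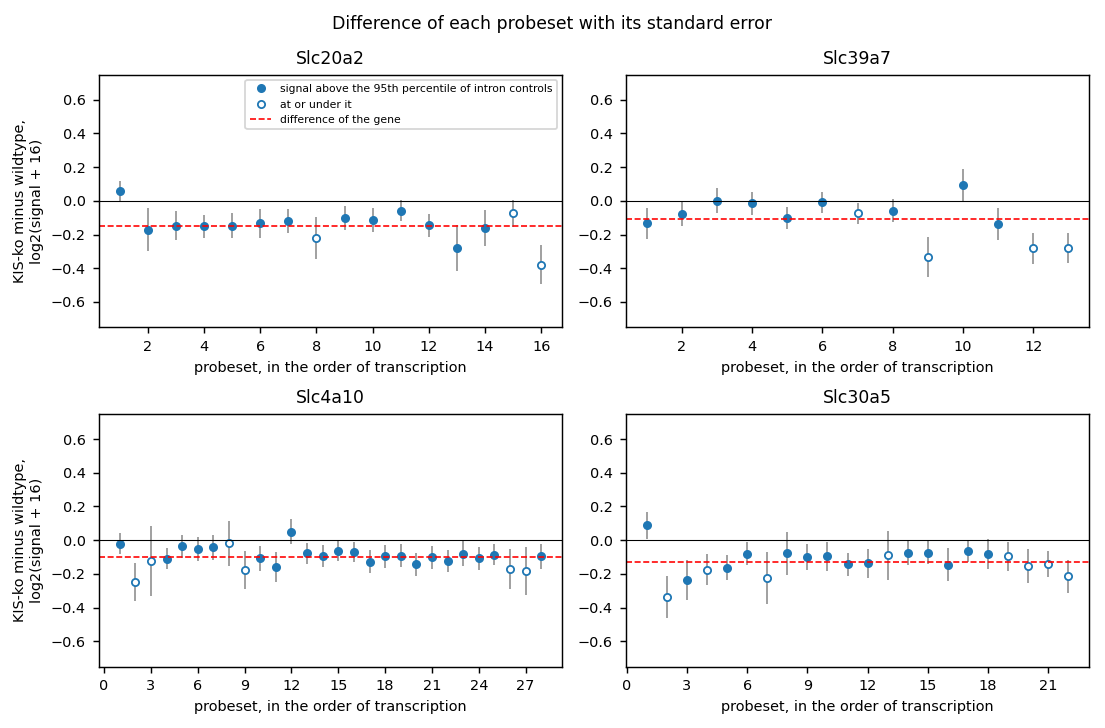
Difference of each probeset of 4 carriers with its standard error, in the order of transcription, filled where the signal was above the 95th percentile of the intron controls and open otherwise, with the gene's difference as a dashed line. In Slc20a2, Slc4a10 and Slc30a5 most probesets lie near the dashed line, whereas in Slc39a7 3 of the open points lie far under it, at -0.33 and -0.28, and several filled points lie at 0.

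The other carriers did not pass even the unadjusted threshold. Those of lowest p included Slc30a5 (difference -0.13, 95% interval -0.26 to 0.00), Slc30a7 (-0.13), Slc41a2 (-0.11), Slc4a10 (-0.10) and Slc30a9 (-0.10), with an adjusted p of 0.685 each in limma. With centred arrays the 5 differences were -0.07, -0.07, -0.05, -0.04 and -0.04. Each of these 5 was lower in 5 of 6 litters, and the litter in which it was higher was litter 4 in every case. Slc30a5 and Slc30a7 load the secretory pathway with zinc.

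**Figure D4:**
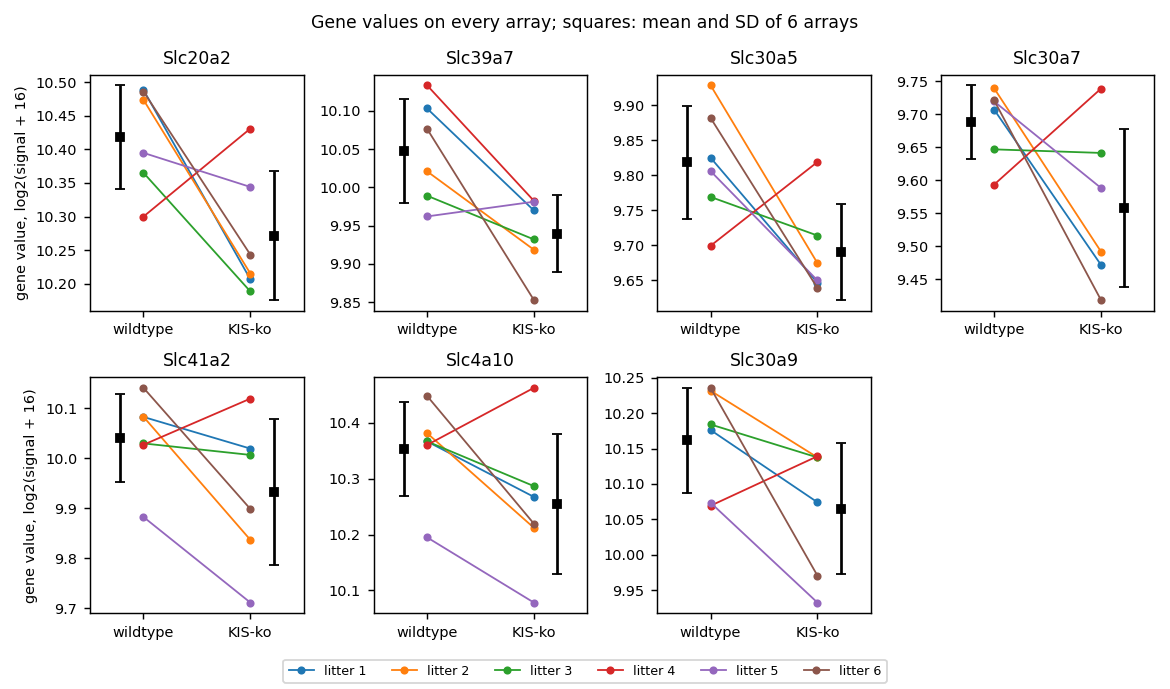
Gene values, log2(signal + 16), of 7 carriers among those of lowest unadjusted p on all 12 arrays, with lines joining littermates and squares for the mean with its SD over 6 arrays. Each panel has its own axis; the line of litter 4 rises in 6 of the 7 panels (all but Slc39a7), while most others fall.

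Taken by family, the bicarbonate group of 8 symbols gave a median difference of -0.03, with 6 below 0, and its values ran from -0.10 (Slc4a10) to 0.08 (Slc4a9, a dim anion exchanger). After centring the median was 0.03 and 2 of 8 were below 0. Of all genes 69.8% were below 0 as deposited and 37.7% after centring, which is the background for every family count. Slc4a4, the main bicarbonate carrier of astrocytes, gave -0.07 (interval -0.19 to 0.06). Slc4a3 and Slc4a8 gave -0.03 each. The adaptor Slc4a1ap gave -0.04 (interval -0.18 to 0.11) and was not detected.

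The 3 sodium/calcium exchangers, all detected, differed little. Slc8a1, Slc8a2 and Slc8a3 gave -0.03, -0.05 and -0.02, with intervals that together spanned -0.19 to 0.09, and all 3 lay above 0 after centring. The Slc24 exchangers had a median of -0.05 with 4 of 6 below 0 (69.8% of all genes). After centring their median was 0.00, with 3 of 6 below 0 (37.7% of all genes). The detected one, Slc24a3, gave -0.08 (interval -0.19 to 0.03), lower in 5 of 6 litters. It had a negative value at 19 of 20 probesets, where 66.2% of all probesets were negative. Slc24a2, a neuronal exchanger with 6 of 13 probesets above the limit, gave -0.09, with a spread over litters from -0.33 to 0.29. Slc24a6, the mitochondrial exchanger that RefSeq now lists as Slc8b1, gave 0.00.

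The proton exchangers and their scaffolds had a median of -0.06, with 7 of 9 below 0 (69.8% of all genes). After centring their median was just under 0, with 5 of 9 below 0 (37.7% of all genes). Slc9a7 and Slc9a8 gave -0.06 each (intervals -0.21 to 0.08 and -0.20 to 0.08) and Slc9a9 gave -0.11 (interval -0.25 to 0.03). The scaffolds Slc9a3r1 and Slc9a3r2 gave -0.06 and -0.02.

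Zinc exporters had a median of -0.07, with 7 of 8 below 0, and zinc importers of -0.02, with 8 of 12 below 0. After centring these medians were -0.02 and 0.03, with 4 of 8 and 4 of 12 below 0, so that the direction of the importers turned with the scaling. Of all genes 69.8% were below 0 as deposited and 37.7% after centring. Slc30a1, the exporter that zinc itself induces, is listed on chromosome 1 from 193730712 to 193733858, the carrier nearest to the window left out, and gave -0.04 (interval -0.18 to 0.09). The vesicle carrier Slc30a3 gave -0.01 and Slc30a4 gave -0.05. Among importers Slc39a10, with 13 of 13 probesets above the limit, gave 0.01 (interval -0.09 to 0.11), Slc39a13 gave 0.01, and Slc39a3 and Slc39a6 gave -0.01 each. The highest importers were not detected, at 0.10 for Slc39a4 and 0.07 for Slc39a5, both best known from gut epithelium. The symbol Slc39a1, with its probesets listed on chromosome 2 and not on that of the gene, gave -0.14 (interval -0.32 to 0.04). The table gives 3 of its 4 probesets a mark for possible cross-hybridization.

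The magnesium carriers Slc41a1, Slc41a2 and Slc41a3 gave -0.09, -0.11 and -0.07, each lower in 5 of 6 litters, with a median of -0.09 as deposited and -0.03 centred. None passed the unadjusted threshold in limma, and with the median over probesets Slc41a3 turned to 0.07. All 12 probesets of Slc41a2 and 12 of the 13 of Slc41a1 were negative, where 66.2% of all probesets were. The families that stayed below 0 by their median under both other scalings were Slc9, Slc20, Slc30 and Slc41. With the median over probesets in place of the mean the sign turned for 12 of the 51 carriers, among them Slc4a9, Slc9a7, Slc20a1, Slc30a1, Slc30a4 and Slc41a3.

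Because zinc itself acts on some of these genes through the metal response element, bound by the factor Mtf1, the promoters of the zinc carriers were searched for its core. Shown are the 250 bases before the start of Slc30a1, the textbook example, and of Slc39a7, the zinc carrier of lowest p, read from RefSeq windows on GRCm38.p6 in the direction of the gene. Slc30a1 is at chr1:191906531-191906780, plus strand, and Slc39a7 at chr17:34031691-34031940, minus strand. These positions cannot be set against those of the table, on which the window on chromosome 1 rests. Capitals mark a match to TGCACNC or TGCGCNC on either strand.
Slc30a1: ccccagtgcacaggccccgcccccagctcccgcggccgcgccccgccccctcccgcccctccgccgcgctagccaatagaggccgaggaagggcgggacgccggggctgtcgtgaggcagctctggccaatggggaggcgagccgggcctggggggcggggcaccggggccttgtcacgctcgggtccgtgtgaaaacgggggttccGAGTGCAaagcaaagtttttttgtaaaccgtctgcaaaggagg
Slc39a7: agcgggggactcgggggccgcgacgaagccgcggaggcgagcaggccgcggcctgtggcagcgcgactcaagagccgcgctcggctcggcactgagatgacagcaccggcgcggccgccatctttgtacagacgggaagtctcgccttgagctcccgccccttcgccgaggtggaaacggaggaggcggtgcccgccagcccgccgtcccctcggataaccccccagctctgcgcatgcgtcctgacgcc
Slc30a1 had 1 match, 43 bases before the start, and Slc39a7 had 0 in this window. Of the 19 zinc carriers searched for (Slc39a1 was left out), 15 had a window in the RefSeq table, 20 windows in all, and 9 of these (45%) held at least 1 match. Of all 32851 windows of the same length 21.4% did. A match is only a description of the letters. Over the 8 genes with a match, differences ran from -0.13 (Slc30a5) to 0.07 (Slc39a5).

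Each litter gives its own difference between the genotypes, and these did not share a direction. The median difference of the carriers was -0.06, -0.15, -0.00, 0.07, -0.02 and -0.17 in litters 1 to 6, and that of all genes -0.05, -0.09, 0.00, 0.07, -0.05 and -0.11. In litter 6, 42 of 51 carriers (82.4%) were lower in KIS-ko, against 70.4% of all genes, and in litter 2, 41 (80.4%), against 69.1%. In litter 5, 29 were lower (56.9%), against 66.1%, and in litter 4, 15 (29.4%), against 30.3%. These directions depended on the scaling. With centred arrays the carriers' medians in litters 1 to 6 were 0.01, -0.01, 0.02, -0.03, 0.01 and -0.01, which turned the sign in litters 1, 3, 4 and 5, and those of all genes were 0.03, 0.04, 0.03, -0.03, -0.01 and 0.05, which turned it in litters 1, 2, 4 and 6. In litter 4, 33 carriers (64.7%) were then lower, against 58.7% of all genes. As deposited, the spread of the medians over the 6 litters was 0.09 (SD) for the carriers and 0.07 for all genes.

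**Figure D5:**
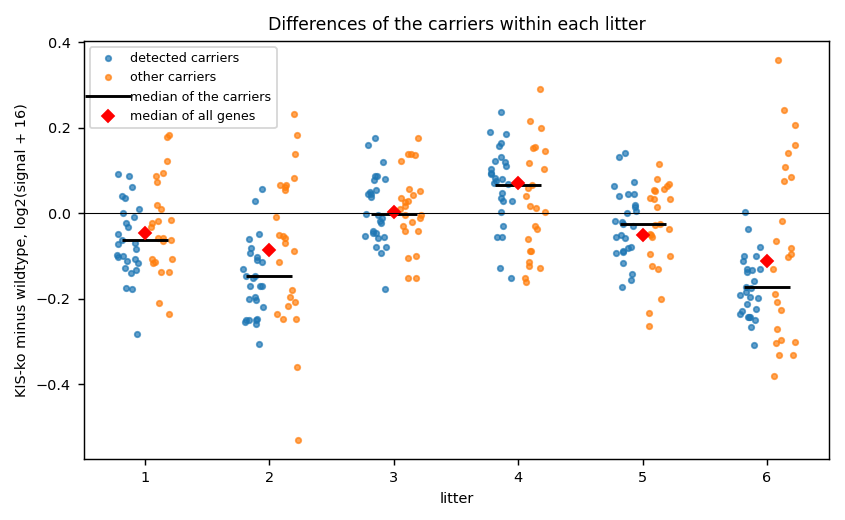
Difference of each carrier within each of the 6 litters, on the log2(signal + 16) scale, for detected and other carriers, with the median of the carriers as a bar and that of all genes as a diamond. On the values as deposited both medians are below 0 in litters 2 and 6 and above 0 in litter 4, where the carriers' median was 0.07; with centred arrays the carriers' median in litter 4 was -0.03.

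Over all litters 40 of 51 carriers had a negative difference, 78.4%, against a background of 69.8% of all genes, and their median was -0.05 against -0.04. After centring the count was 23 of 51, against 37.7% of all genes, and after a second quantile normalization 28 of 51, against 48.6%. Among detected genes the comparison was closer, with 24 of 27 carriers (88.9%) and 85.7% of all detected genes below 0, and medians of -0.06 and -0.05. Carriers lower in 6 of 6 litters numbered 0 (background 1.6%), as did carriers higher in 6 of 6 (0.92%). Groups that did not overlap were found for 0 carriers (0.208%). Lower in exactly 5 litters were 18 carriers, 35.3%, against 20.9% of all genes. Lower in every litter but litter 4 were 15 of them, 29.4%, with a background of 16.4%. Among detected genes, 12 of 27 carriers and 1703 of 6587 genes were lower in exactly 5 litters. These litter counts are as deposited, and only in litter 4 did the KIS-ko littermate have the higher array median.

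Leaving out litter 4 moved several of these counts. Without it 14 carriers were lower at an unadjusted p under 0.05 in limma, against 19% of all genes, 15 were lower in all 5 litters left, against 18%, and 0 passed the adjusted threshold. The lowest adjusted p was then 0.125 for Slc20a2, whose difference became -0.20 (interval -0.32 to -0.09). The 14 came from 7 families, and among them were Slc20a1 and Slc20a2, Slc30a5, Slc30a6, Slc30a7 and Slc30a9, Slc41a1 and Slc41a2, Slc9a8, Slc39a1 and Slc39a14, Slc4a10, and Slc24a2. Slc39a7 was not among them. At that unadjusted threshold 0 carriers were lower without litter 1, 2 or 6 (2.33%, 2.2% and 1.9% of all genes), 1 without litter 3 (3.13%) and 2 without litter 5 (3.48%). Without litter 6, 1 was lower in all 5 litters left, against 2.01%.

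The study scored expression by a fold change of KIS-ko over wildtype, weighted over probesets, with a limit of 6%. By this measure 5 carriers were at least 6% lower (background 8.84% of all genes) and 4 at least 6% higher (17.5%), 9 in either direction (26.4%). The 5 were Slc20a2 with 0.933 ± 0.077 (SD over 6 pairs), Slc30a5 with 0.934 ± 0.075, Slc30a7 with 0.934 ± 0.063, Slc41a2 with 0.935 ± 0.076 and Slc39a1 with 0.928 ± 0.135. The 4 higher ones, Slc4a9, Slc30a8, Slc39a4 and Slc39a5, were all carriers that were not detected, as were Slc30a7 and Slc39a1 among the lower ones. With centred arrays the counts were 0 lower (background 2.72%) and 9 higher (30.4%).

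At the level of exons, 0 of the 821 kept probesets of the carriers passed the adjusted threshold in limma (background 0.00487%), and 51 had an unadjusted p under 0.05 (background 6.63%), of which 38 were lower (background 4.72%) and 13 higher (1.91%). Negative differences were found at 573 probesets, 69.8%, against 66.2% of all probesets. Probesets of a gene share the same RNA and array and are not replicates.

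Other genes that handle the same ions were read from the same fit. Of 55 such genes measured in 6 lists, 0 passed the adjusted threshold in limma and 3 had an unadjusted p under 0.05, all of them lower, where 4.34% of all genes were lower at this threshold. These were Car13 (-0.19) and Car8 (-0.12), members of the carbonic anhydrase family that interconverts carbon dioxide and bicarbonate, though Car8 lacks the enzyme activity, and Trpm7 (-0.17), a channel kinase that admits magnesium. Below 0 were 13 of 15 carbonic anhydrases (median -0.07), 9 of 10 Slc26 anion exchangers (-0.05), 2 of 3 partners of proton exchangers (-0.02), 7 of 7 calcium pumps (-0.05), 6 of 6 zinc buffering genes (-0.05) and 9 of 14 further magnesium and phosphate genes (-0.05). The background was 69.8% of all genes and 85.7% of detected genes below 0. After centring the counts of the 6 lists were 9, 5, 0, 2, 3 and 6, against 37.7% of all genes. The metallothioneins Mt1, Mt2 and Mt3, which bind zinc in the cytosol, gave -0.05, -0.04 and -0.07.

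No marker of the cells in which these carriers act passed the adjusted threshold. As a background for the marker counts, 69.8% of all genes and 85.7% of detected genes were below 0. After centring 37.7% of all genes were. Choroid plexus, where Slc4 and Slc9 proteins take part in making cerebrospinal fluid, had 7 of 11 markers below 0 with a median of -0.02, and the mean value of the list lay between 8.88 and 9.05 in wildtype and between 8.84 and 9.03 in KIS-ko brains. Astrocyte and radial glia markers were below 0 in 8 of 8 cases (median -0.08, 6 of 8 after centring), with list means of 10.79 to 10.996 and 10.71 to 10.90. Gfap, the intermediate filament of astrocytes, was the only marker with an unadjusted p under 0.05, at -0.27 (0.685 adjusted in limma). Neuron markers had 6 of 8 below 0 (median -0.03) and erythroid markers 3 of 11 (median 0.03), and after centring these counts were 1 and 0, with 3 of 11 for choroid plexus. Below 0 were also 6 of 9 markers of the oligodendrocyte lineage, 5 of 8 of microglia, 7 of 8 of endothelium and 6 of 8 of meninges (2, 1, 4 and 5 after centring). The part of cell make-up in the carriers' differences was not tested.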

How the data were processed

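The series holds 12 arrays in 1 table. Per the authors' methods, total RNA was hybridized to Affymetrix Exon 1.0 ST arrays, read with the Affymetrix Expression Console, quantile-normalized at the exon level and summarized with PLIER. The intensity that the authors deposited is this PLIER signal, linear and not pooled over animals. Groups and litters come from the labels, and the sex is that given in the authors' methods.

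Main probesets with a symbol were used (221417 of 229581). After the methods, a probeset was rejected where the SD exceeded 0.4 of the mean in 1 genotype or both, which removed 15948 and left 205469, 821 of them of the carriers. Gene values were means over probesets of log2(signal + 16). The test was that of limma 3.58.1 (lmFit, eBayes; R 4.3.3) over all 17279 genes, blocked by litter, with p-values adjusted after Benjamini-Hochberg and a threshold of 0.05, and probesets likewise. The script was tested on simulated data. Python 3.11.15, numpy 2.4.6, pandas 2.3.3 and matplotlib 3.10.9 were used for counts and plots. The methods' fold change was the mean of the pairs' ratios, weighted over probesets by the inverse relative standard deviation of the ratios.

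No arrays were identical, and log2 signals of any 2 arrays correlated at 0.977 to 0.990. The number of arrays and the signal over background limit the precision. Littermates are paired by label. Taken as deviations from the genotype mean, the arrays of littermates correlated at 0.27, -0.06, 0.14, -0.11, 0.47 and -0.11 in litters 1 to 6, and those of other pairs at -0.02 on average.

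The 51 symbols enter all counts, and 2 of them are not reported here singly. The others could be named, in the order of their families, with values by array for those with an unadjusted p under 0.05 or moving the same way in 6 of 6 litters. Partner and marker genes were named where their unadjusted p was under 0.05, and the metallothioneins were added after their values were seen. Members, lists and alternatives were chosen with earlier results of these data known. Of the 51 symbols 49 matched the RefSeq list of GRCm38.p6 and 2 matched a synonym. Main probesets without a symbol (1587) and probesets of other types (6577, apart from intron controls) were left out. The promoter of Slc20a2 was not used here.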

Additional observations from a re-analysis of the deposited data

Results flagged for a closer look

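In each genotype the 6 values of every carrier were searched for 1 brain far from the others, 102 groups in all, and 2 groups had one. Chance alone marks about 5% of such groups. Both concern the wildtype brain of litter 5. Slc4a10 had a gene value of 10.20 there, while the other 5 wildtype brains lay between 10.36 and 10.45. Slc30a4 had a value of 10.58 there, while the other 5 lay between 10.40 and 10.43. Neither gene passed the unadjusted threshold in limma.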

How the results depend on the processing

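Under every alternative run, 0 carriers passed the adjusted threshold in limma. The number lower at an unadjusted p under 0.05 (2 as reported) was 4 without the litter block, 4 with trend and robust moderation, 1 with a pseudocount of 1, 1 without dim probesets, 1 with the median over probesets, 0 with centred arrays, and 0 to 14 when each litter was left out in turn, 14 being without litter 4. The median over probesets gave 1 carrier higher in place of 0. Centred arrays left 23 of 51 below 0. The number lower in all litters was 1, in place of 0, with centring, with a second quantile normalization and with the median over probesets, and 0 to 15 with a litter left out; the number higher in all was 1 with the median over probesets. Carrier probesets under 0.05 (51) numbered 26 without dim probesets and 28 to 139 with a litter left out (28 without litter 6, 139 without litter 4). Without litter 4, 113 of them were lower, 13.8% of the carrier probesets, against 12.8% of all probesets. Carriers at least 6% lower (5) were 0 after either scaling and 0 to 14 with a litter left out. Those at least 6% higher (4) were 9 with centring, 7 with a second quantile normalization, 7 unweighted, 1 from group means and 2 to 6 with a litter left out. Detected carriers (27) were 47 against the median control, with no share of all genes taken. Partner genes under 0.05 (3) were 1 with a pseudocount of 1, 1 without the filter, 5 at a limit of 0.2, 0 with centring, 1 with a second quantile normalization and 0 to 15 with a litter left out.

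The replicate block changed no call at the adjusted threshold. Without the scaffolds, the adaptor and Slc39a1, an alternative chosen after the data were seen, 36 of 47 were below 0. A dim gene's change is understated, and 24 carriers were not detected. The scaling of the arrays moved the median difference of all genes from -0.04 to 0.02 (centred) or 0.00 (quantiles), about the size of the carriers' own median, so that the share of carriers below 0 depends on it. The causes of these changes were not tested.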
